A study of Mus musculus with 4 samples.

Results

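Klf1, Klf3, Gfi1b, Tfdp2 and Mllt3 are 5 genes for nuclear factors that act in red cell precursors, and their RNA was followed in the mouse G1E line across 4 groups. The genes were chosen by symbol. No measured value was in the rule, but earlier results of these data were known when they were chosen. All 5 occur in at least 1 of the 6 deposited tables, which hold 2982 genes of 12931 tested. Counts of listed factors beside the share of all tested genes are therefore not free of that choice. G1E is an erythroblast line derived from cells that lack GATA-1, the zinc finger factor that drives red cell maturation. The groups were GATA-1 2RA, GATA-1 V205M, GATA-1 WT and the G1E control, with 1 sample each, and β-estradiol treatment (spelled β-estrodiol in the labels) was common to all of them, the control included. V205M is a substitution known for weak contact with the cofactor FOG-1. What 2RA alters, how GATA-1 was introduced and whether a line is a single clone is not stated in the labels, nor are strand use and separate cultures. Levels are the authors' scaled reads, in which each library's reads are divided by its size factor, and every interval below is a 95% interval for counting error only. A gene is called listed in a comparison when the authors' table holds it, which needs a change above 2-fold and an adjusted p under 0.01. With 1 sample a group, no difference has a replicate check, and the authors' p-values describe these libraries.

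Red cell precursors leave the progenitor state under GATA-1, which switches on erythroid genes, among them genes for further transcription factors, and switches off Gata2 and Kit. Klf1 is a zinc finger activator of globin, heme and red cell membrane genes, and Klf3 is a related repressor that binds similar CACCC sites and is itself activated by Klf1 in mouse erythroid cells. Gfi1b is a zinc finger repressor that works with LSD1 and CoREST. Tfdp2 encodes DP2, the partner that E2F factors need to bind DNA, and Mllt3 encodes AF9, a reader of acylated histones that brings in the super elongation complex or the histone methyltransferase DOT1L.

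The promoter windows of the genes are shown because the groups differ in GATA-1, which binds GATA sites. RefSeq windows on GRCm38.p6, from 250 bases before an annotated start to 50 bases from it on, matched 5 of 5 genes, with 7 windows in all. The GATA motif was searched as AGATA or TGATA followed by A or G, on both strands, and 29.8% of 32851 mouse windows of this length hold it. It is in capitals in the first 4 sequences below and reads TTATCA or CTATCT where it lies on the opposite strand. The Klf motif CCNCNCCC, held by 49.5% of all windows on either strand, is in capitals in the Klf3 window, where 10 matches, several of them overlapping, merge into longer runs and no GATA motif was found.
Klf1: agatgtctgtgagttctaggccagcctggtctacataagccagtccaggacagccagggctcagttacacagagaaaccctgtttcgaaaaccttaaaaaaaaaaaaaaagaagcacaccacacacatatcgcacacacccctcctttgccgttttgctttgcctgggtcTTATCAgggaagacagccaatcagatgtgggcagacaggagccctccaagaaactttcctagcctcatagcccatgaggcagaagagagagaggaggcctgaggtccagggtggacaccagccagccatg
Gfi1b: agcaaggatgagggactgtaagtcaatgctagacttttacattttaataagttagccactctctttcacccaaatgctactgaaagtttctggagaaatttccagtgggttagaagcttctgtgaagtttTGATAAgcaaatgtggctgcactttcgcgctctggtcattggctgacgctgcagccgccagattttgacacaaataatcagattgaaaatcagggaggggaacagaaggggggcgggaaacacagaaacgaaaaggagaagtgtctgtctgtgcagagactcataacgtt
Tfdp2: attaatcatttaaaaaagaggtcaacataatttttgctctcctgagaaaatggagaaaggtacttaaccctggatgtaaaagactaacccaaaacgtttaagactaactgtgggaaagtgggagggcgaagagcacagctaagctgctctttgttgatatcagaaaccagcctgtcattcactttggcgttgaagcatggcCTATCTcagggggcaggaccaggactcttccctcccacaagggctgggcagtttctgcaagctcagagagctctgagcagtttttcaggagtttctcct
Mllt3: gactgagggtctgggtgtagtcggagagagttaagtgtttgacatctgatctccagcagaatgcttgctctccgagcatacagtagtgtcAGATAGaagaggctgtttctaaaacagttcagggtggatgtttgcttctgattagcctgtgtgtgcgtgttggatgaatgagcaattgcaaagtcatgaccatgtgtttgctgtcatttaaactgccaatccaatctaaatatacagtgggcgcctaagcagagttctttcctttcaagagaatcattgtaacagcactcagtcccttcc
Klf3: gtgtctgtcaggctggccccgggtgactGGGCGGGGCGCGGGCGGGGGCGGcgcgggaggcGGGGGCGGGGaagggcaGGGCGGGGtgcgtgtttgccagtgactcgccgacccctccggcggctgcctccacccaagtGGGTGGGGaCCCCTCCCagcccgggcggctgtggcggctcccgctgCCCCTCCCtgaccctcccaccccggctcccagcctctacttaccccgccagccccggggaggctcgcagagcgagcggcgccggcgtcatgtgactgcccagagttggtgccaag
These windows are chr8:84901732-84902031 on the plus strand for Klf1, chr2:28621933-28622232 on the minus strand for Gfi1b, chr9:96258455-96258754 on the plus strand for Tfdp2, chr4:87806274-87806573 on the minus strand for Mllt3 and chr5:64803271-64803570 on the plus strand for Klf3. The GATA motif begins 80 bases before the start in Klf1, 120 before it in Gfi1b, 49 before it in Tfdp2 and 160 before it in Mllt3. The Tfdp2 start lies 62430 bases and the Mllt3 start 227041 bases inside the gene as GENCODE draws it, so both are internal starts. The other Mllt3 window, chr4:88033358-88033657, is at the gene's outer end and holds 5 matches to the Klf motif and none to the GATA motif. The other Tfdp2 window, chr9:96258998-96259297, holds neither. The Gfi1b window also holds 2 matches to the Klf motif, and the Gfi1 core AATCNC, found in 33.2% of all windows, is in none of the 7. Which of these starts the reads come from is not known from the tables, and a match is a stretch of letters, not a measured binding site.

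The genes themselves lie at chr8:84901928-84905291 (Klf1, plus strand), chr5:64803388-64832901 (Klf3, plus strand), chr2:28609450-28621982 (Gfi1b, minus strand), chr9:96196275-96323646 (Tfdp2, plus strand) and chr4:87769925-88033364 (Mllt3, minus strand) on GRCm38. The levels are sums over whole genes, so they tell no exon or start site apart. Klf3 shares 404 exon bases, 3.59% of its exon length, with Gm20033 on the opposite strand, and since strand use is not stated, reads there cannot be told apart. The other 4 genes share no exon base with another gene.

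Gata1 RNA stood at 1421 scaled reads in GATA-1 2RA, 613 in GATA-1 V205M and 2652 in GATA-1 WT, against 153 in the G1E control. It was thus 9.30-fold (7.92 to 10.4), 4.01-fold (3.40 to 4.51) and 17.3-fold (14.8 to 19.4) higher than in the control, and the amount of Gata1 RNA moved with the form of GATA-1. Its part in the results below was not tested. Recovered reads over listed genes came to 1218762 in GATA-1 2RA, 1147539 and 977544 in the 2 count columns found for GATA-1 V205M, 2178397 in GATA-1 WT, and 1015015 and 276064 in the 2 of the G1E control. Among erythroid markers, 9 of 10 had a level in all 4 groups, and their sum was 3930 in GATA-1 2RA, 3874 in GATA-1 V205M and 68665 in GATA-1 WT, against 3057 in the control. Hbb-b1 alone made up 2342 of the GATA-1 2RA sum, and in each mutant 2 of the 10 markers were listed higher and 4 lower than in the control (median log2 change -1.57 for GATA-1 2RA and -1.50 for GATA-1 V205M), while in GATA-1 WT 9 were higher and 0 lower. Of the mast cell markers, 8 of 12 summed to 3517, 3322 and 409 scaled reads in GATA-1 2RA, V205M and WT, against 5770 in the control. Kit alone made up 2218 of the GATA-1 2RA sum, and single markers moved in both directions. Over the control, 2 of the 12 were listed higher and 4 lower in GATA-1 2RA. The counts were 4 and 3 in GATA-1 V205M, and 1 and 7 in GATA-1 WT. Of the megakaryocyte markers only 3 of 15 (Plek, Fli1 and P2rx1) had all 4 levels, with sums of 1858, 73.9 and 460, against 325 in the control. Over the control, 5 of the 15 were listed higher and 0 lower in GATA-1 2RA. The counts were 0 and 4 in GATA-1 V205M, and 2 and 1 in GATA-1 WT. Single markers differed here too, as in GATA-1 WT Tubb1 was listed higher (log2 change 5.12) and P2rx1 lower (-4.05). Beside these marker counts, 7.46% (GATA-1 2RA), 8.15% (GATA-1 V205M) and 13.0% (GATA-1 WT) of all tested genes were called over the control. None of 9 neutrophil and macrophage or 8 lymphocyte markers is in any table. In bulk RNA, a change in the number of cells of a type and a change in RNA per cell cannot be told apart.

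**Figure D1:**
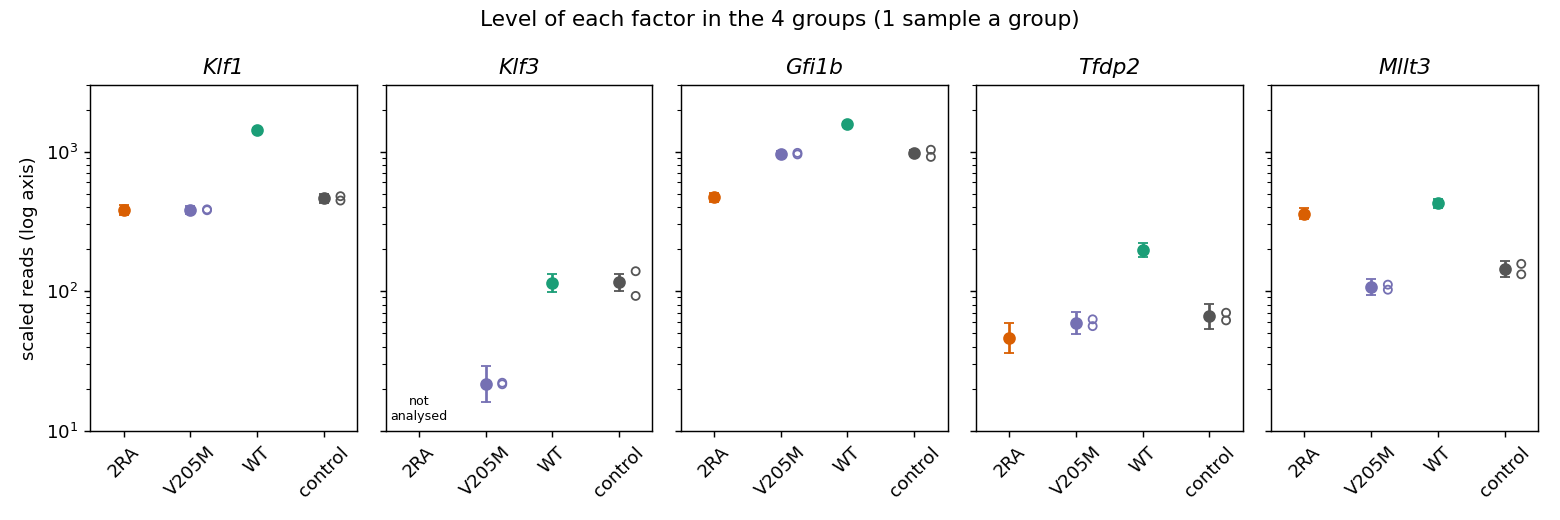
Level of each factor in scaled reads (log axis) in GATA-1 2RA, GATA-1 V205M, GATA-1 WT and the G1E control. Filled points are the authors' levels with counting intervals, and open points are the 2 count columns of GATA-1 V205M and of the control. Klf1, Gfi1b and Tfdp2 stand highest in GATA-1 WT, Mllt3 is high in GATA-1 2RA and WT, and Klf3 is low in GATA-1 V205M.

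In GATA-1 WT against the G1E control, 3 of the 5 factors were listed, all higher (Klf1, Tfdp2 and Mllt3), where the authors' table called 13.0% of the tested genes, 8.17% higher and 4.86% lower. In GATA-1 2RA against the control, 2 of 5 were listed, Mllt3 higher and Gfi1b lower, with 7.46% of all genes called, 4.86% higher and 2.61% lower. In GATA-1 V205M against the control, 1 of 5 was listed, Klf3, which was lower, with 8.15% called, 4.83% higher and 3.32% lower. When the mutants were set against GATA-1 WT, every listed factor was lower: 3 of 5 in GATA-1 2RA (Klf1, Gfi1b and Tfdp2), where 7.38% of all genes were called (3.33% higher, 4.04% lower), and 4 of 5 in GATA-1 V205M (Klf1, Klf3, Tfdp2 and Mllt3), where 9.36% were called (3.70% higher, 5.65% lower). In GATA-1 2RA against GATA-1 V205M, Mllt3 was listed higher and Gfi1b lower, with 6.23% of all genes called, 3.60% higher and 2.62% lower. Comparisons that share a group share its library, so these counts are not independent of each other. Klf3 was listed in no comparison that involves GATA-1 2RA, and its level there is not analysed here.

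**Figure D2:**
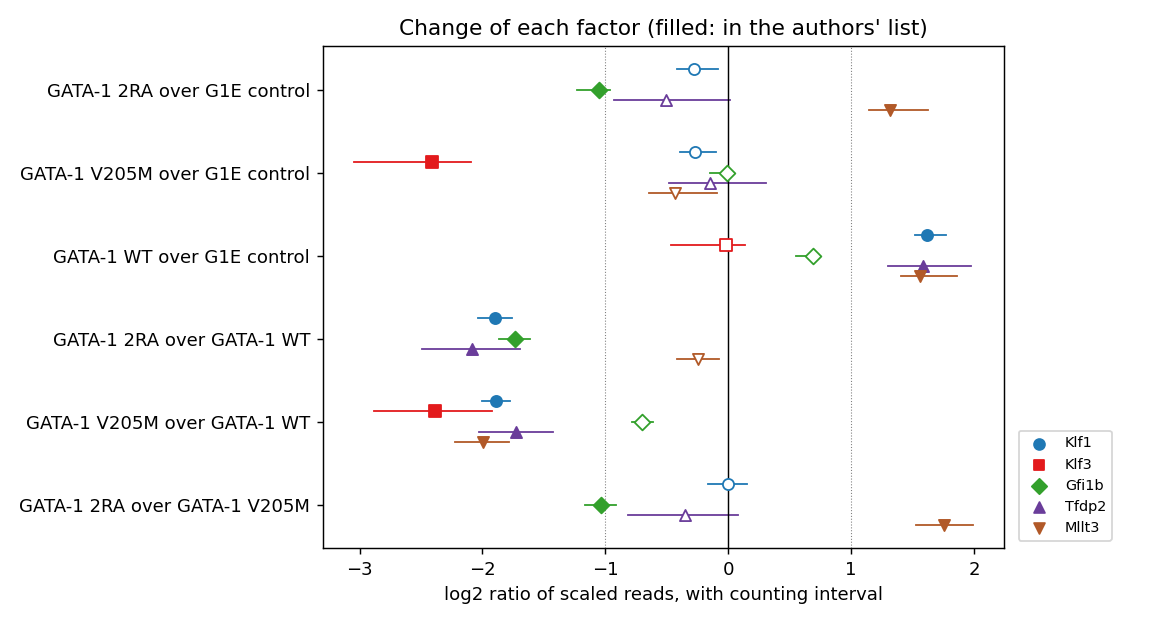
Log2 ratio of scaled reads for each factor in the 6 comparisons, with its counting interval. Filled symbols are listed by the authors and dotted lines mark 2-fold. Klf1 and Tfdp2 fall on the same side in both mutants against GATA-1 WT, whereas Gfi1b is listed lower in GATA-1 2RA and Mllt3 in GATA-1 V205M.

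Klf1 RNA rose in cells with GATA-1 WT and, with the authors' size factors, stayed near the control level in both mutants. It stood at 381 scaled reads in GATA-1 2RA (533 reads), 382 in GATA-1 V205M (448 and 379 reads) and 1418 in GATA-1 WT (2251 reads), against 462 in the G1E control (520 and 171 reads). The order of the levels was GATA-1 WT, the control, then the mutants together. GATA-1 WT exceeded the control 3.07-fold (2.87 to 3.41), with an adjusted p of 2.31e-21 in the authors' deposited table. GATA-1 2RA was at 0.269 times GATA-1 WT (0.244 to 0.295; adjusted p 1.55e-23 in the authors' deposited table), and GATA-1 V205M was at 0.270 times (0.249 to 0.292; adjusted p 4.43e-34 in the same source). The mutants differed from each other by a ratio of 0.996 (0.891 to 1.11), GATA-1 2RA over V205M, an interval that holds 1. Against the control, the ratios were 0.824 (0.749 to 0.942) for GATA-1 2RA and 0.828 (0.762 to 0.935) for GATA-1 V205M, unlisted, with intervals just under 1. In log2(scaled reads + 1) these changes were -0.28 for GATA-1 2RA and -0.27 for GATA-1 V205M. They became -0.79 and -0.56 with median-ratio scaling, and -0.52 and -0.51 with total-read scaling. How far the mutants lay below the control thus depends on the scaling. The control's own count columns stood at 445 and 478 scaled reads, both above the mutants.

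Genes known as Klf1 targets moved the same way in most cases. Of 29, 19 were listed higher and 0 lower in GATA-1 WT over the control, where 13.0% of all tested genes were called. The median log2 change was 2.22 among those listed, against 1.24 over all listed genes and 1.68 over all genes listed higher. Against GATA-1 WT, 17 were lower and 0 higher in GATA-1 2RA, with 7.38% of all tested genes called. Their median was -2.65, against -1.07 over all listed genes and -1.56 over all genes listed lower. In GATA-1 V205M, 18 were lower and 1, Cd44, higher than in GATA-1 WT, with 9.36% called. The median was -3.50, against -1.16 over all listed genes and -1.60 over all genes listed lower. Against the control the mutants were mixed, with 5 higher and 3 lower in GATA-1 2RA (median 1.24, the same as over all listed genes) and 5 higher and 6 lower in GATA-1 V205M (median -1.20, against 1.11). There, 7.46% (GATA-1 2RA) and 8.15% (GATA-1 V205M) of all tested genes were called. Alas2, the first enzyme of heme synthesis in red cells, had 2.14 scaled reads in GATA-1 2RA (3 reads), 34.7 in GATA-1 V205M and 1154 in GATA-1 WT, against 6.54 in the control. The GATA-1 2RA level of Alas2 was 0.00186 times that of GATA-1 WT (0.000383 to 0.00544), and the GATA-1 V205M level was 0.0300 times (0.0239 to 0.0383). GATA-1 V205M was 5.30-fold (2.27 to 8.10) higher in Alas2 than the control, whose count columns held 12 reads and 1 read (10.3 and 2.80 scaled reads), so the size of that fold rests on few reads. Add2, a protein of the red cell membrane skeleton, had 4.29 scaled reads in GATA-1 2RA, 65.8 in GATA-1 V205M and 925 in GATA-1 WT, against 116 in the control, so that GATA-1 2RA fell below both the control and GATA-1 V205M. Slc4a1, the anion exchanger band 3, rested on 2 reads in each mutant against 527 scaled reads in GATA-1 WT, with ratios of 0.00271 (0.000328 to 0.00983) for GATA-1 2RA and 0.00177 (0.000212 to 0.00637) for GATA-1 V205M. Hbb-b1, an adult beta globin gene with a near-identical copy that makes its counts uncertain, went the other way between the mutants, with 2342 scaled reads in GATA-1 2RA but 91.6 in GATA-1 V205M, beside 39108 in GATA-1 WT and 238 in the control. With the authors' size factors, the mutants thus had Klf1 levels within counting error of each other. The mutants differed among Klf1 target genes, with 7 of the 29 listed higher and 6 lower in GATA-1 2RA than in V205M. In that comparison, 6.23% of all tested genes were called. The Klf1 targets include several of the erythroid markers whose sums are given above, and the list is not independent of them.

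**Figure D3:**
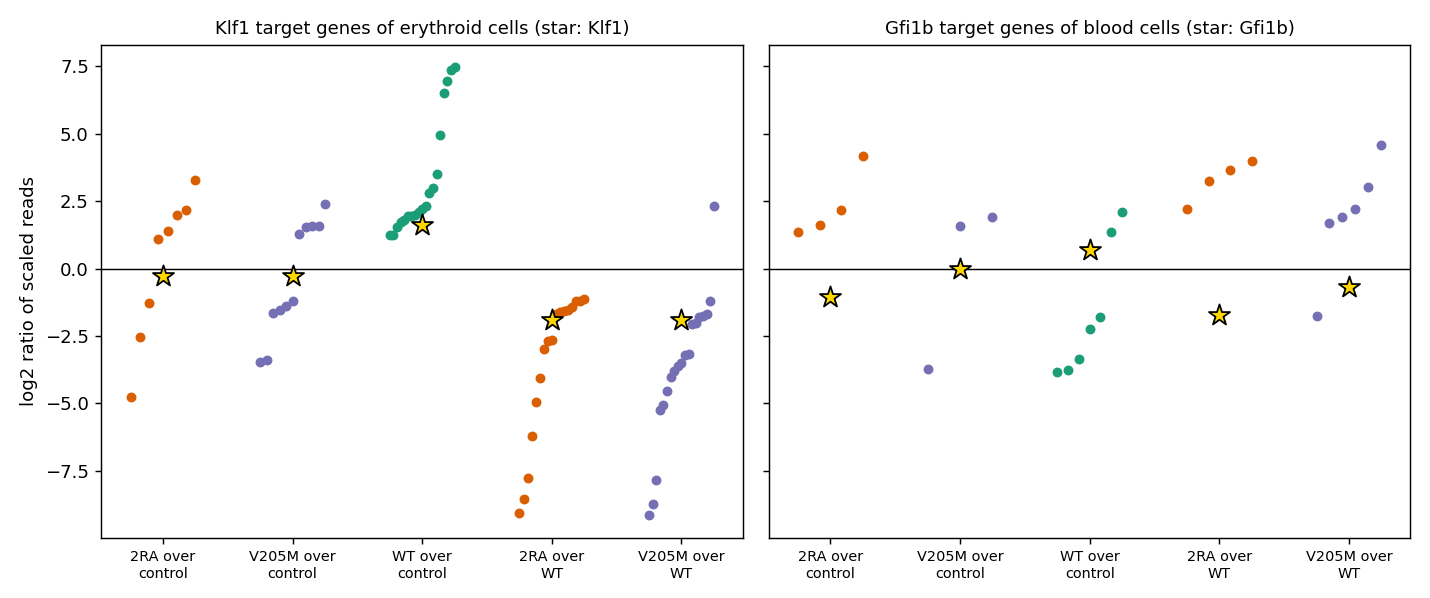
Log2 ratio of scaled reads (vertical axis) of the listed genes among known Klf1 targets (left) and known Gfi1b targets (right) in 5 comparisons, 1 point a gene, with the factor itself as a star. The Klf1 targets listed in GATA-1 WT over the control are all above 0, and those in the mutants over GATA-1 WT are below 0 except Cd44. Gfi1b targets in the mutants over GATA-1 WT are above 0 except Bcl2l1.

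Klf3 RNA fell in GATA-1 V205M. In GATA-1 WT it was within counting error of the control with the authors' size factors, but lower with other scalings. Its level was 21.8 scaled reads in GATA-1 V205M (25 and 22 reads) and 114 in GATA-1 WT (181 reads), against 116 in the G1E control (162 and 33 reads). GATA-1 V205M was at 0.188 times the control (0.121 to 0.235; adjusted p 6.34e-06 in the authors' deposited table) and at 0.191 times GATA-1 WT (0.135 to 0.264; adjusted p 0.000156 in the same source). The ratio of GATA-1 WT to the control was 0.987 (0.724 to 1.10). In log2(scaled reads + 1) this change was -0.02, against -1.13 with median-ratio scaling and -0.85 with total-read scaling, so whether Klf3 in GATA-1 WT was at the control level depends on the scaling. The control's count columns were 139 and 92.3 scaled reads, so GATA-1 WT lay between them, while both columns of GATA-1 V205M, at 21.5 and 22.0, lay well below. Klf1 and Klf3 had unlike values in that group: Klf1 in GATA-1 V205M was at 0.828 times the control, where Klf3 was at 0.188 times.

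Of 19 other Klf and Sp family genes, 5 are in any table: Klf6, Klf9, Klf10, Klf11 and Klf13. Klf13 was listed higher in GATA-1 V205M and in GATA-1 WT, each over the control, with 164 scaled reads in GATA-1 2RA, 250 in GATA-1 V205M and 452 in GATA-1 WT, against 112 in the control. Klf10, which is induced by TGF-beta, was listed lower in both GATA-1 V205M and GATA-1 WT, with 96.4 scaled reads in GATA-1 2RA, 48.9 in GATA-1 V205M and 37.8 in GATA-1 WT, against 184 in the control. Klf9 resembled Klf3 in falling in GATA-1 V205M, to 29.3 scaled reads against 94.7 in the control, a ratio of 0.309 (0.244 to 0.453), and it has no level in the other groups. Family counts were 1 higher and 0 lower in GATA-1 2RA over the control, 1 and 2 in GATA-1 V205M, and 2 and 1 in GATA-1 WT. Against GATA-1 WT they were 1 higher and 1 lower for GATA-1 2RA, and 0 and 1 for GATA-1 V205M. These counts are near the share of all genes called in each comparison (7.46%, 8.15% and 13.0% over the control, 7.38% and 9.36% over GATA-1 WT) and are no result about the family.

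Gfi1b RNA was lowest in GATA-1 2RA. The levels were 470 scaled reads in GATA-1 2RA (658 reads), 966 in GATA-1 V205M (1138 and 952 reads) and 1568 in GATA-1 WT (2489 reads), against 972 in the G1E control (1202 and 327 reads). GATA-1 V205M and the control did not differ beyond counting error, with a ratio of 0.993 (0.902 to 1.03). GATA-1 2RA was at 0.483 times the control (0.427 to 0.514; adjusted p 9.08e-11 in the authors' deposited table). It was at 0.300 times GATA-1 WT (0.275 to 0.327; adjusted p 1.68e-24 in the authors' deposited table) and at 0.487 times GATA-1 V205M (0.445 to 0.531; adjusted p 8.61e-11 in the same source). The change against the control is close to the 2-fold limit: it was -1.13 in log2(scaled reads + 1) with the first count column of the control alone and -0.96 with the second. The ratio of GATA-1 WT to the control was 1.61 (1.47 to 1.67) and that of GATA-1 V205M to GATA-1 WT was 0.616 (0.582 to 0.654), both unlisted. The direction of GATA-1 WT against the control depends on the scaling, given below.

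Of 16 genes known as Gfi1b targets in blood cells, 9 are in a table. In GATA-1 2RA over the control, 4 were listed higher and 0 lower. Their median log2 change was 1.89, against 1.24 over all listed genes and 1.57 over all genes listed higher. Over GATA-1 WT the counts were likewise 4 and 0. That median was 3.43, against -1.07 over all listed genes and 1.93 over all genes listed higher. In GATA-1 V205M, whose Gfi1b level was that of the control, 2 were higher and 1 lower than in the control (median 1.59, against 1.11). Set against GATA-1 WT, 5 were higher and 1 lower. The median there was 2.06, against -1.16 over all listed genes and 1.55 over all genes listed higher. In GATA-1 WT over the control, 2 were higher and 5 lower (median -2.25, against 1.24). The shares of all tested genes called over the control were 7.46% (GATA-1 2RA), 8.15% (GATA-1 V205M) and 13.0% (GATA-1 WT). Over GATA-1 WT they were 7.38% (GATA-1 2RA) and 9.36% (GATA-1 V205M). Meis1, a homeobox factor of progenitors and megakaryocytes, had 276 scaled reads in GATA-1 2RA, 57.2 in GATA-1 V205M and 17.6 in GATA-1 WT, against 15.4 in the control. Meis1 was thus 18.0-fold (13.5 to 34.9) higher than the control in GATA-1 2RA and 3.72-fold (2.69 to 7.35) higher in GATA-1 V205M. Bcl2l1, the survival factor Bcl-xL and also a Klf1 target, had 438, 121 and 411 scaled reads in GATA-1 2RA, V205M and WT, against 97.1 in the control. Myb, a progenitor factor, had 406 and 408 scaled reads in GATA-1 2RA and V205M and 87.5 in GATA-1 WT, against 416 in the control. Gata2 had 514, 1316 and 54.8 scaled reads in GATA-1 2RA, V205M and WT, against 773 in the control, and Kit had 2218, 1440 and 179, against 2429. Myb, Gata2 and Kit were listed higher than in GATA-1 WT in both mutants. Gfi1b was there at 0.300 times (GATA-1 2RA) and 0.616 times (GATA-1 V205M, unlisted) its GATA-1 WT level. In log2(scaled reads + 1) the GATA-1 V205M change of Gfi1b was -0.70, against -0.21 with median-ratio and -0.27 with total-read scaling. In GATA-1 2RA, where Gfi1b was below the control, Myb, Gata2 and Kit were not above the control. The part of Gfi1b in these levels was not tested. Kit is among the mast cell markers. Only 3 of 15 megakaryocyte markers (Plek, Fli1 and P2rx1) had all 4 levels, and they summed highest in GATA-1 2RA, where Gfi1b was lowest. The part of mast cell and megakaryocyte markers in these values was not tested.

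Of 12 genes for the repressor partners of Gfi1b, 4 are in any table. In GATA-1 2RA, 0 were listed against the control or against GATA-1 WT, where 7.46% and 7.38% of all genes were called, so that a count of 0 of 12 is near the background. Rcor3, a CoREST protein, was lower in GATA-1 V205M, at 18.8 scaled reads against 71.0 in the control. Ehmt2, the histone methyltransferase G9a, was lower in GATA-1 WT, at 42.8 scaled reads against 125 in the control. Gse1 was listed lower in GATA-1 V205M, with 90.7 scaled reads in GATA-1 2RA, 29.7 in GATA-1 V205M and 80.0 in GATA-1 WT.

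Tfdp2 RNA rose in GATA-1 WT and, with the authors' size factors, was near the control level in both mutants. Klf1 had the same pattern at a far higher read count. It had 46.4 scaled reads in GATA-1 2RA (65 reads), 59.4 in GATA-1 V205M (73 and 56 reads) and 197 in GATA-1 WT (313 reads), against 65.8 in the G1E control (72 and 25 reads). GATA-1 WT stood apart from the other groups, which lay within 46.4 to 65.8. The ratio of GATA-1 WT to the control was 3.0 (2.46 to 3.93; adjusted p 2.84e-05 in the authors' deposited table). GATA-1 2RA was at 0.236 times GATA-1 WT (0.177 to 0.309; adjusted p 1.19e-06 in the same source), and GATA-1 V205M at 0.301 times (0.245 to 0.373; adjusted p 6.71e-07 in the same source). With these size factors, neither mutant differed from the control beyond counting error. The ratios were 0.706 (0.525 to 1.01) for GATA-1 2RA and 0.903 (0.715 to 1.23) for GATA-1 V205M. Nor did the mutants differ from each other, at 0.782 (0.568 to 1.06) for GATA-1 2RA over V205M. In log2(scaled reads + 1), GATA-1 2RA over the control was -0.49, against -0.99 with median-ratio scaling and -0.71 with total-read scaling. GATA-1 V205M over the control was -0.15, against -0.43 and -0.35. How far GATA-1 2RA lay below the control thus depends on the scaling.

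Of 12 genes for E2F factors, the other DP protein and the pocket proteins, 0 were listed against the control in any group, where 7.46% (GATA-1 2RA), 8.15% (GATA-1 V205M) and 13.0% (GATA-1 WT) of all genes were called. Nothing about the family is read from that count. Against GATA-1 WT, Rb1, the retinoblastoma protein that holds E2Fs in check, was lower in both mutants, at 84.3 (GATA-1 2RA) and 85.9 (GATA-1 V205M) scaled reads, against 186 in GATA-1 WT. E2f4, an E2F that mice need for red cell production, was higher in GATA-1 V205M, at 1067 scaled reads, beside 477 in both GATA-1 2RA and GATA-1 WT. E2f8, a repressive family member, had 405 scaled reads in GATA-1 2RA, 142 in GATA-1 V205M and 500 in GATA-1 WT, and E2f2, which acts in terminal erythroid divisions, had 53.8 in GATA-1 V205M and 125 in GATA-1 WT. In all, 0 of these genes were higher and 1 lower in GATA-1 2RA over GATA-1 WT, and 1 was higher and 3 lower in GATA-1 V205M over GATA-1 WT. In these comparisons, 7.38% (GATA-1 2RA) and 9.36% (GATA-1 V205M) of all tested genes were called. The count of 1 of 12 in GATA-1 2RA is near the background and is no result about the family.

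Of 19 E2F targets of S phase, 4 are in a table. Ccna2, Ccne1 and Cdc6 had their highest level in GATA-1 WT, like Tfdp2. Ccna2, the S and G2 phase cyclin, had 1355 scaled reads in GATA-1 2RA, 2662 in GATA-1 V205M and 5412 in GATA-1 WT, against 923 in the control. Ccne1, the cyclin of S phase entry, had 20.7, 68.1 and 257 scaled reads in GATA-1 2RA, V205M and WT, against 35.4 in the control. Cdc6, which loads the replicative helicase, had 1003, 899 and 2936 scaled reads, against 513. Cdt1, its fellow loading factor, went the other way, with 79.3 (GATA-1 2RA) and 69.3 (GATA-1 WT) scaled reads, against 168 in the control. The counts were 3 higher and 1 lower in GATA-1 WT over the control, 0 and 1 in GATA-1 2RA over the control and 1 and 0 in GATA-1 V205M over the control, and 0 and 3 in each mutant over GATA-1 WT. The other 15 S-phase genes are in no table. Shares of all tested genes called over the control were 7.46% in GATA-1 2RA, 8.15% in GATA-1 V205M and 13.0% in GATA-1 WT. For the mutants set against GATA-1 WT, the shares were 9.36% in GATA-1 V205M and 7.38% in GATA-1 2RA. The count of 1 of 19 in each mutant over the control is near the background and is no result about the S-phase genes.

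Mllt3 RNA rose in GATA-1 2RA as well as in GATA-1 WT, and not in GATA-1 V205M. Its level was 359 scaled reads in GATA-1 2RA (503 reads), 107 in GATA-1 V205M (119 and 111 reads) and 426 in GATA-1 WT (677 reads), against 144 in the G1E control (154 and 56 reads). The groups thus formed a high pair, GATA-1 WT and 2RA, and a low pair, the control and GATA-1 V205M. GATA-1 2RA exceeded the control 2.49-fold (2.22 to 3.08; adjusted p 1.07e-07 in the authors' deposited table), and GATA-1 WT exceeded it 2.95-fold (2.65 to 3.63; adjusted p 1.10e-10 in the same source). With median-ratio scaling the change in GATA-1 2RA over the control was 0.80 in log2(scaled reads + 1), below 2-fold. GATA-1 V205M was at 0.250 times GATA-1 WT (0.214 to 0.290; adjusted p 1.05e-18 in the authors' deposited table), and GATA-1 2RA was 3.37-fold (2.88 to 3.97; adjusted p 4.07e-14 in the same source) above GATA-1 V205M. Within the pairs the ratios were 0.843 (0.749 to 0.947) for GATA-1 2RA over WT and 0.740 (0.638 to 0.936) for GATA-1 V205M over the control, both unlisted, with intervals below 1. The megakaryocyte markers Fli1, Plek and P2rx1 summed highest in GATA-1 2RA and lowest in GATA-1 V205M, and their part in the Mllt3 levels was not tested.

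Among 21 genes for partners of AF9 in the super elongation complex and around DOT1L, 6 are in a table. Eaf1 and Ell2, elongation factors of that complex, were higher than in the control in all 3 groups with GATA-1. Eaf1 had 286, 321 and 396 scaled reads in GATA-1 2RA, V205M and WT, against 131 in the control, and Ell2 had 280, 292 and 324, against 137. Both were thus above the control in GATA-1 V205M too, where Mllt3 was at 0.740 times the control. Aff3, a scaffold of the complex, was lower in both mutants, at 0.714 scaled reads for GATA-1 2RA (1 read) and 1.43 for GATA-1 V205M (3 reads in all), against 21.2 in the control. The ratios to the control were 0.0336 (0.000746 to 0.180) for GATA-1 2RA and 0.0674 (0.0116 to 0.186) for GATA-1 V205M. Against GATA-1 WT, Bcor, a partner of AF9 in a repressor complex, was higher in GATA-1 2RA (453 against 163), Aff4, the central scaffold, was higher in GATA-1 V205M (270 against 100.1), and Ell was lower there (63.1 against 135). Counts over the control were 2 higher and 1 lower in each mutant and 2 and 0 in GATA-1 WT. The medians were 1.03 in GATA-1 2RA, 1.09 in GATA-1 V205M and 1.42 in GATA-1 WT beside 1.24, 1.11 and 1.24 over all listed genes. Over all genes listed higher in GATA-1 WT the median was 1.68. Of all tested genes, 7.46% (GATA-1 2RA), 8.15% (GATA-1 V205M) and 13.0% (GATA-1 WT) were called over the control. The counts of 21 are near these shares and are no result about the partners.

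Levels can be set between genes only per length. Per kilobase of annotated exon, all transcripts merged, GATA-1 WT cells had 927 scaled reads of Klf1, 857 of Gfi1b, 35.5 of Mllt3, 14.1 of Tfdp2 and 10.1 of Klf3. In GATA-1 2RA the order of the first pair was turned, with 257 scaled reads per kilobase for Gfi1b and 249 for Klf1. In GATA-1 V205M they stood at 528 for Gfi1b and 250 for Klf1, and in the control at 531 and 302. The merged exons of Klf3 (11243 bases), Tfdp2 (14029) and Mllt3 (12004) are far longer than those of Klf1 (1530) and Gfi1b (1830), so their values per kilobase are understated where a shorter transcript is used.

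The profile of each factor over the 4 groups was set beside 975 other genes with all 4 levels and a mean of 50 or more scaled reads, by the root mean square distance between log2(scaled reads + 1) values, each gene centred on its own mean. Klf1 and Tfdp2 were near each other, at a distance of 0.123, with only 2 genes nearer to Klf1 and 4 nearer to Tfdp2. Mllt3 and Gfi1b were far apart, at 1.06, and Klf1 and Gfi1b stood at 0.501. The genes nearest to Klf1 were Maf1, a repressor of RNA polymerase III (0.0645), Kctd7 (0.103) and the kinase gene Gsk3a (0.126). Nearest to Tfdp2 were Zfp930 (0.0758), Bnip3l, which encodes the mitophagy receptor that clears mitochondria from maturing red cells (0.0912), and the linker histone gene Hist1h1e (0.113). Nearest to Mllt3 was the Klf family gene Klf6 (0.0393), with 219, 69.3 and 268 scaled reads in GATA-1 2RA, V205M and WT against 93.7 in the control, followed by Abca7 (0.120) and Arl6ip1 (0.124). Nearest to Gfi1b were Rpl18-ps2 (0.122), Cbr1 (0.162) and Gm10698 (0.168), of which Rpl18-ps2 is named as a ribosomal protein pseudogene and may share reads with its parent gene. With 4 points a gene and libraries in common, these distances are descriptions, and all genes searched are in at least 1 of the authors' tables.

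**Figure D4:**
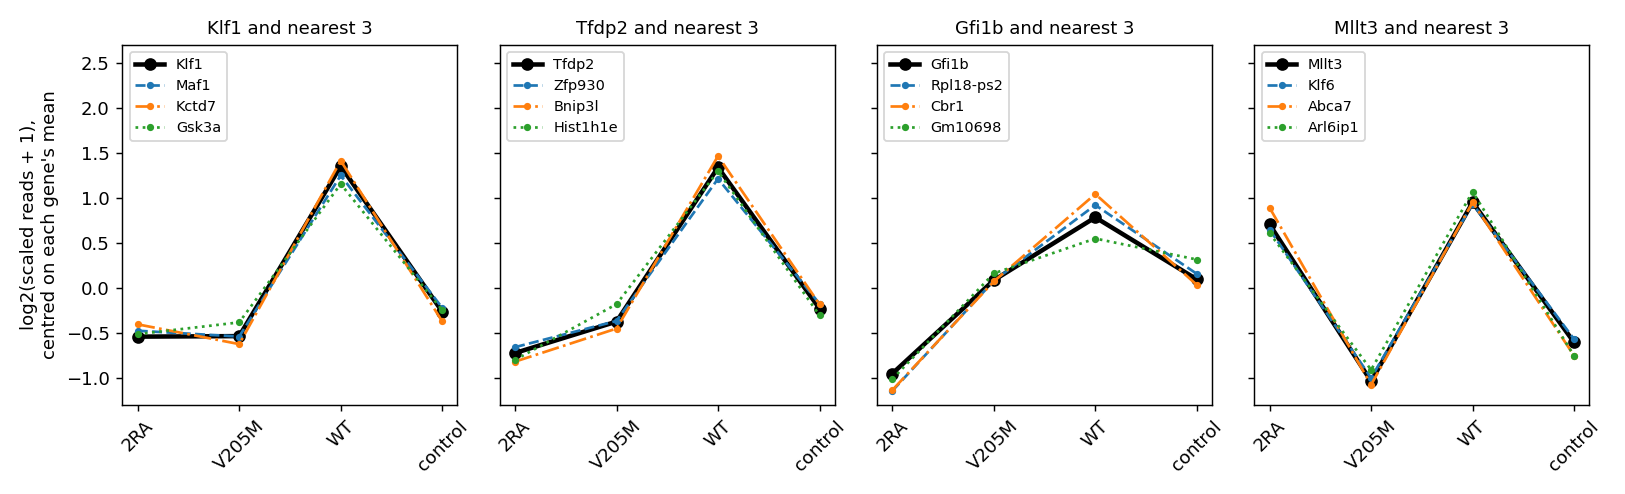
Log2(scaled reads + 1) of each factor (thick line) and of its 3 nearest genes in the 4 groups, each centred on the gene's mean. Klf1 and Tfdp2 peak in GATA-1 WT only, Gfi1b is lowest in GATA-1 2RA, and Mllt3 and Klf6 are high in both GATA-1 2RA and WT.

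The size factors bear on every change against the control. Over 979 genes with all 4 levels and a mean of 50 or more, the median log2 ratio was 0.51 for GATA-1 2RA, 0.29 for GATA-1 V205M and 1.13 for GATA-1 WT over the control, -0.15 for GATA-1 2RA and -0.49 for GATA-1 V205M over GATA-1 WT, and 0.21 for GATA-1 2RA over V205M. These genes are in the tables because they changed somewhere, so their median is no neutral baseline. Relative to it, the log2(scaled reads + 1) change in GATA-1 WT over the control became 0.49 for Klf1, 0.45 for Tfdp2 and 0.43 for Mllt3, still positive, in place of 1.62, 1.57 and 1.56. With total listed reads as the scale it was 0.95, 0.93 and 0.94. Gfi1b in GATA-1 WT over the control was 0.69 with the authors' size factors, -0.44 with the median and -0.05 with total reads, so its direction flips. Mllt3 in GATA-1 2RA over WT, at -0.25, became 0.17 with total reads. The fall of Klf1 and Tfdp2 in both mutants, of Gfi1b in GATA-1 2RA and of Klf3 and Mllt3 in GATA-1 V205M, each against GATA-1 WT, kept its direction and exceeded 2-fold under all 3 scalings.

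**Figure D5:**
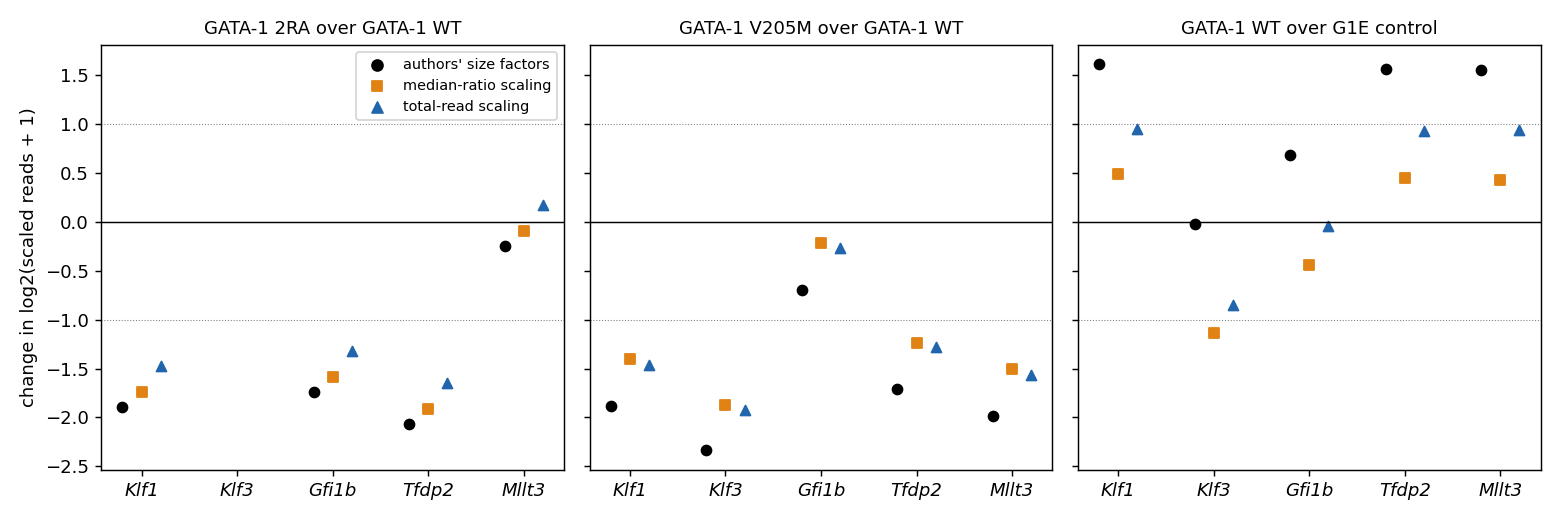
Change in log2(scaled reads + 1) of each factor in GATA-1 2RA over WT, GATA-1 V205M over WT and GATA-1 WT over the G1E control, under the authors' size factors, median-ratio scaling and total-read scaling. Dotted lines mark 2-fold. The changes against GATA-1 WT keep their sign except Mllt3 in GATA-1 2RA, while in GATA-1 WT over the control Klf1, Tfdp2 and Mllt3 shrink, Gfi1b changes sign and Klf3 moves from near 0 to below 0.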

How the data were processed

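Per the file headers and the values, the deposited signal is a group's mean of reads scaled by library size factors (scaled reads), with the ratio of 2 groups as fold, its log2 value, a p-value and a Benjamini-Hochberg adjusted p-value. Deposited rows all exceed 2-fold and have an adjusted p under 0.01. TopHat, Cufflinks, Cuffdiff, deepTools and mm10 are named in the submitters' processing notes without versions, the tool that tested the genes being not given in the sources used here.

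Whole reads were recovered for 100% of the levels. For the G1E control and GATA-1 V205M the relative tolerance was 5e-11 (1e-09 for the table rounded to 10 digits). For GATA-1 2RA and WT a level had to lie close to a whole number of reads. The recovery was checked on simulated unrounded levels with at least 1 read in each column, so rounded levels and columns without reads were not checked. GATA-1 2RA and WT had 1 count column each, and the G1E control and GATA-1 V205M had 2, although the labels name 1 sample, so the columns were not treated as replicates and the authors' p-values may rest on them. Ratios are of the deposited levels. Their 95% intervals come from recovered reads pooled over the columns (exact Poisson for levels, Clopper-Pearson for ratios), cover counting error only, and need not be centred on the ratio. No p-value was computed, since there is 1 sample a group. Log2 changes used a pseudocount of 1. Python 3.11.15, numpy 2.4.6, pandas 2.3.3 and scipy 1.17.1 were used.

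The factors and gene lists were chosen with earlier results of these data known. Named genes are the 5 factors, the 3 genes nearest to each, up to 6 genes a list with the largest change against the control, and Gata1, Gata2 and Kit; further genes named where a list is broken down were chosen after their values were seen. Of 2982 symbols, 2731 were matched to GENCODE. A few genes that this rule selects are not reported here.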

Additional observations from a re-analysis of the deposited data

How the results depend on the processing

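Each group is 1 sample, so nothing here measures the spread between cultures, and unlisted changes are known only through other tables. No paired analysis was possible because no group has a second sample. The number of factors past the fold limit was 2 in GATA-1 2RA over the control, 1 in GATA-1 V205M over the control, 3 in GATA-1 WT over the control, 3 in GATA-1 2RA over WT, 4 in GATA-1 V205M over WT and 2 in GATA-1 2RA over V205M. With a 4-fold limit it was 0 in GATA-1 2RA over the control, 0 in GATA-1 WT over the control, 1 in GATA-1 2RA over WT, 1 in GATA-1 V205M over WT and 0 in GATA-1 2RA over V205M. With median-ratio scaling it was 1 in GATA-1 2RA over the control (Gfi1b, with Mllt3 at 0.80 in log2) and 1 in GATA-1 WT over the control, and that 1 was Klf3 at -1.13, none of the 3 listed factors. With total-read scaling it was 0 in GATA-1 WT over the control. By construction, a stricter limit keeps fewer genes, and both scalings move all genes of a group together. Of 164 values recomputed under the alternatives, 126 moved by less than their counting interval and 38 by more, of which 20 came with median-ratio and 17 with total-read scaling, and no listed change turned round. With the second count column of the control alone, Klf3 in GATA-1 WT over the control was 0.30 in log2(scaled reads + 1), in place of -0.02. By Pearson's r in place of the distance, 1 of the 3 nearest genes was shared for Klf1 and 1 for Mllt3.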

Other observations

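Genes for proteins that work beside GATA-1 were in part unlike the factors described. Lmo2, the bridging subunit of the GATA-1 complex, was higher than in the control in all 3 groups with GATA-1, at 694 scaled reads in GATA-1 2RA, 401 in GATA-1 V205M and 1293 in GATA-1 WT, against 82.2 in the G1E control. Tal1, its DNA-binding partner, was listed lower in GATA-1 V205M, with 333, 111 and 341 scaled reads in GATA-1 2RA, V205M and WT, against 627 in the control. Lyl1, which is related to Tal1, had 21.7 scaled reads in GATA-1 V205M, beside 302 in the control, and has no level in the other groups. Fli1, an ETS factor of megakaryocytes, was highest in GATA-1 2RA, with 331, 47.6 and 89.4 scaled reads in GATA-1 2RA, V205M and WT, against 36.4 in the control. Of a list of 11 genes that holds these and Gata1 itself, 3 were listed higher and 0 lower in GATA-1 2RA over the control, 2 and 3 in GATA-1 V205M, and 3 and 1 in GATA-1 WT, Gata1 being 1 of the higher genes each time, where 7.46%, 8.15% and 13.0% of all tested genes were called.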
